A study of Mus musculus with 6 samples.

Results

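Growth factors of the EGF family and the ErbB receptors that bind them were followed in Lgr5-GFP-positive cells sorted from mouse small intestinal organoids. The set was chosen by gene symbol and held 10 of the 56884 genes counted. It comprised 7 ligands, amphiregulin (Areg), epiregulin (Ereg), heparin-binding EGF-like growth factor (Hbegf), transforming growth factor alpha (Tgfa), betacellulin (Btc), epigen (Epgn) and EGF itself (Egf), and 3 receptors, Egfr, Erbb2 and Erbb3. The design allowed the question of which ligands these cells transcribe, and whether the receptor transcripts moved together with Areg and Ereg when the cultures had been given 4-hydroxytamoxifen (4-OHT).

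All organoids came from Ythdf2fl/fl mice that also carried Villin-CreERT2 and Lgr5-EGFP-IRES-CreERT2, so the controls had both Cre drivers and the floxed Ythdf2 gene too. Villin-driven Cre acts across the intestinal epithelium and Lgr5-driven Cre in crypt base stem cells, and 4-OHT releases the CreERT2 fusion protein into the nucleus. Cultures received 0.5 µM 4-OHT or ethanol vehicle (EtOH), and GFP-positive cells were collected at day 4 or day 6 of that treatment. There were 2 libraries of each label at day 6 and 1 of each at day 4, 6 in all. The age, sex and number of the mice, and the composition of the culture medium, are not given in the sources used here. The labels do not say that replicate libraries came from separate cultures or animals, so the p-values measure the spread between these libraries, which may be technical.

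EGF family ligands are made as membrane-anchored precursors and are released by metalloproteases such as ADAM17. EGF, TGF-alpha and amphiregulin bind EGFR, while HB-EGF, betacellulin and epiregulin bind EGFR and ErbB4. ErbB2 has no known soluble ligand and serves as a dimer partner, ErbB3 binds neuregulins and has a nearly inactive kinase, and the activated dimers drive the RAS, ERK and PI3K pathways. In the crypt, EGFR signalling sustains stem cell proliferation, Paneth cells supply EGF and TGF-alpha, and amphiregulin and epiregulin are known from epithelial repair and from tumours driven by Wnt signalling.

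The 4 ligand genes Epgn, Ereg, Areg and Btc lie in a row on chromosome 5 of the mouse genome (GRCm39). Epgn spans chr5:91175323-91183074 and Ereg chr5:91222157-91241505, both on the plus strand. Areg follows at chr5:91287451-91296291 on the plus strand, and Btc at chr5:91505120-91550883 on the minus strand. The gaps between them are 39.1, 45.9 and 209 kb. The 250 bases just upstream of the annotated start are shown for Areg and Ereg, the ligands whose levels differed most between the labels (chr5:91287201-91287450 and chr5:91221907-91222156, plus strand, 5′ to 3′). Capitals mark matches to 4 motifs searched on both strands, none of which overlap here. They were the AP-1 pattern TGANTCA, where N is any base, the cAMP response element TGACGTCA, the TEAD site GGAATG and the TATA box TATAAA.
Areg: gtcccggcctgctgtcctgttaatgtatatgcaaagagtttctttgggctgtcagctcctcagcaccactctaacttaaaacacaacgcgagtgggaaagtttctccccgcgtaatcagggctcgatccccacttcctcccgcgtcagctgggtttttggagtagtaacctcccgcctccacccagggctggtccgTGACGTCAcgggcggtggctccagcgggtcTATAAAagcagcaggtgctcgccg
Ereg: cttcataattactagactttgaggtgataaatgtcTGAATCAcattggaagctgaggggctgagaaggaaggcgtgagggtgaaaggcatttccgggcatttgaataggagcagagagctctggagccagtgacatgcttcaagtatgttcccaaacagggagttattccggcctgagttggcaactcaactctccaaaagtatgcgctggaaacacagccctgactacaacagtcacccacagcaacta

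In the Areg window the response element begins 54 bases and the TATA box 24 bases before the start. In the Ereg window the AP-1 match, TGAATCA, begins 215 bases before it, and the other 3 motifs have no match. That match has A at the open position, not the C or G of the usual AP-1 site. There were 21757 windows of the same length upstream of annotated protein-coding genes. Of these, 1.7% held the cAMP response element, 11.9% the TATA box, 6.18% the AP-1 pattern with any base at N and 12.1% the TEAD site. Tgfa and Erbb3 also held an AP-1 match, at 117 and 78 bases. Epgn held a TATA box at 33 bases and Erbb2 a TEAD site at 245 bases. Btc, Hbegf, Egf and Egfr held none of the 4 motifs. The windows of Areg and Ereg thus shared none of these motifs. A match describes letters in the window and is not a measured binding site.

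The libraries held 14345379 to 21461835 gene counts, so that 1 CPM (TMM-scaled counts-per-million) stood for 15 to 21 counts. Ythdf2, the floxed gene, was at 82.9 and 76.1 CPM under EtOH and 208 and 205 CPM under the 4-OHT label at day 6, and at 76.2 against 168 CPM at day 4. Ythdf2 was therefore higher in the libraries labelled 4-OHT (log2 fold change 1.37, adjusted p 0.0024), the opposite direction to a loss of the transcript. Counts per gene cannot show whether a single exon was deleted or whether labels were exchanged, and an exchange would turn every direction given here. Every direction is therefore that of the libraries labelled 4-OHT, also where they are called 4-OHT for short. Epithelial marker genes summed to 5823 to 9306 CPM, all 6 detected in every library, while 6 mesenchymal markers summed to at most 1.09 CPM and 3 endothelial ones to at most 0.976 CPM. The 6 immune markers summed to 4.40 to 8.27 CPM, of which Cd68 alone reached 7.82 CPM. Lgr5, the sort gene, was at 298 ± 66.9 CPM in EtOH and 218 ± 12.9 CPM in 4-OHT-labelled libraries at day 6 (SD, n = 2 each, log2 fold change -0.45, adjusted p 0.472). Enterocyte markers summed to 563 to 597 CPM in day 6 EtOH libraries and to 2047 to 2455 CPM in those labelled 4-OHT, and 6 of 7 passed the test as higher (all genes, 1.98%). Stem cell markers summed to 3504 to 4525 against 1922 to 2321 CPM, and 1 of 6 passed as lower (all genes, 0.171%). Most of that sum was Olfm4, at 2247 to 3308 against 985 to 1322 CPM. Lgr5, Smoc2 and Axin2 were also lower in both 4-OHT-labelled libraries, while Ascl2 and Rnf43 overlapped between labels. Goblet cell markers summed to 3360 to 3469 against 2590 to 2875 CPM although 2 of 7 passed as higher. Most of the goblet sum was Fcgbp, at 2198 to 2437 against 1587 to 1692 CPM. Without any call, Paneth cell markers summed to 2014 to 2801 against 2016 to 4911 CPM, enteroendocrine markers to 382 to 445 against 376 to 720 CPM, and tuft cell markers to 20.4 to 37.5 against 9.76 to 11.5 CPM. At day 4 the enterocyte sum was 331 (EtOH) against 699 CPM, the stem cell sum 2835 against 2008 CPM, the Paneth cell sum 396 against 1652 CPM and the enteroendocrine sum 57.8 against 278 CPM. The part of these shifts in the results below was not tested, and in bulk RNA fewer cells of a type and less RNA per cell cannot be told apart.

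Areg was the most abundant ligand transcript per length in all 6 libraries. Levels are given as CPM per kilobase of annotated exon, which allows genes to be compared within a library. In the day 6 EtOH libraries Areg stood at 37.6 and 63.0 CPM per kilobase, 66.4% ± 1.24 (SD, n = 2) of the summed ligand level. In the day 6 libraries labelled 4-OHT it stood at 110 and 159 CPM per kilobase, or 77.4% ± 2.71 of the sum. The shares in the 2 labels did not overlap, and at day 4 they were 63.9% (EtOH) and 77.1% (4-OHT). Btc came next at 11.2 ± 3.87 CPM per kilobase in day 6 EtOH and 16.0 ± 1.85 in 4-OHT-labelled libraries, followed by Hbegf at 8.42 ± 2.19 and 14.4 ± 0.632, and Tgfa at 4.91 ± 1.10 and 6.51 ± 0.424.

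The next 3 ligands were far lower. Ereg reached 0.420 ± 0.476 CPM per kilobase in day 6 EtOH and 1.80 ± 1.25 in 4-OHT-labelled libraries, Egf 0.188 ± 0.0104 and 0.129 ± 0.0218, and Epgn 0.0775 ± 0.0266 and 0.0516 ± 0.0729. The order Areg, then Btc or Hbegf, then Tgfa held in all 6 libraries, and so did every ligand's place above Epgn. Neighbours in the order were less well separated. Btc exceeded Hbegf in 5 of 6 libraries, the exception being day 4 EtOH, and Ereg exceeded Egf in 5 of 6, the exception being day 6 EtOH replicate 1. The ligand sum was 57.4 and 93.6 CPM per kilobase in day 6 EtOH and 146 and 201 in day 6 4-OHT-labelled libraries, and at day 4 it was 102 (EtOH) and 202 (4-OHT). Without Areg the sums were 19.8 and 30.6 at day 6 in EtOH, 35.9 and 41.7 in 4-OHT, and 36.8 and 46.1 at day 4.

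**Figure D1:**
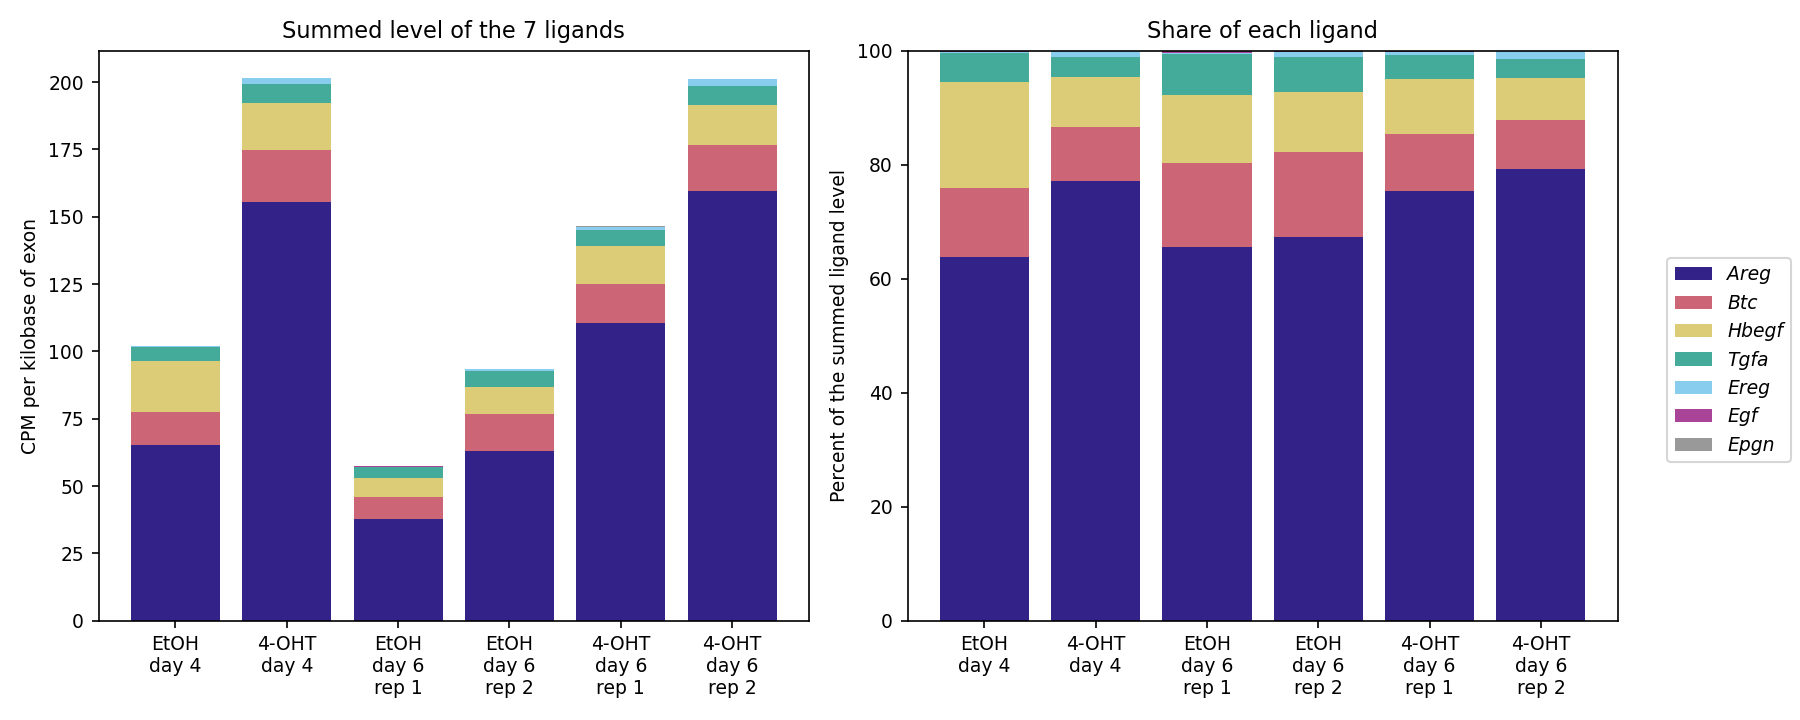
Left, stacked level of the 7 ligands in each of the 6 libraries, in CPM per kilobase of exon; right, the share of each ligand in that sum, in percent. Areg fills 63.9% to 67.3% of the bar in EtOH libraries and 75.4% to 79.3% in those labelled 4-OHT, and Ereg, Egf and Epgn are barely visible.

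Areg was the only member whose difference between labels passed the test at day 6. Amphiregulin is an EGFR ligand that binds the receptor less tightly than EGF. It had 867 and 1326 counts in the day 6 EtOH pair and 2898 and 3635 in the 4-OHT-labelled pair, or 46.0 and 77.0 against 135 and 195 CPM. Both 4-OHT values lay above both EtOH values, and the means were 61.5 ± 21.9 and 165 ± 42.4 CPM (SD, n = 2 each). Areg rose 2.68-fold (log2 fold change 1.42, SE 0.26, 95% interval 0.84 to 2.0, adjusted p 0.0224). It was 1 of 9 members tested that passed, where 2.15% of the 14066 genes tested did, 1.98% as higher and 0.171% as lower. At day 4 the single libraries held 1550 (EtOH) and 2793 (4-OHT) counts, 79.6 and 190 CPM, and with day as a term over all 6 libraries Areg was 2.58-fold higher (log2 fold change 1.37, 95% interval 0.91 to 1.82, adjusted p 0.00525).

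The size of the Areg rise depended on which day 6 EtOH library stood for the controls. EtOH replicate 1 was the lowest of the 6 libraries for 7 of the 9 members tested. The share of all genes lowest in that library was not counted, so this is no result about the members. Without it the Areg change at day 6 was 1.10 on the log2 scale and no longer passed (adjusted p 0.0825), and no member did. Over both days Areg passed with any 1 library left out, with adjusted p up to 0.0229.

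**Figure D2:**
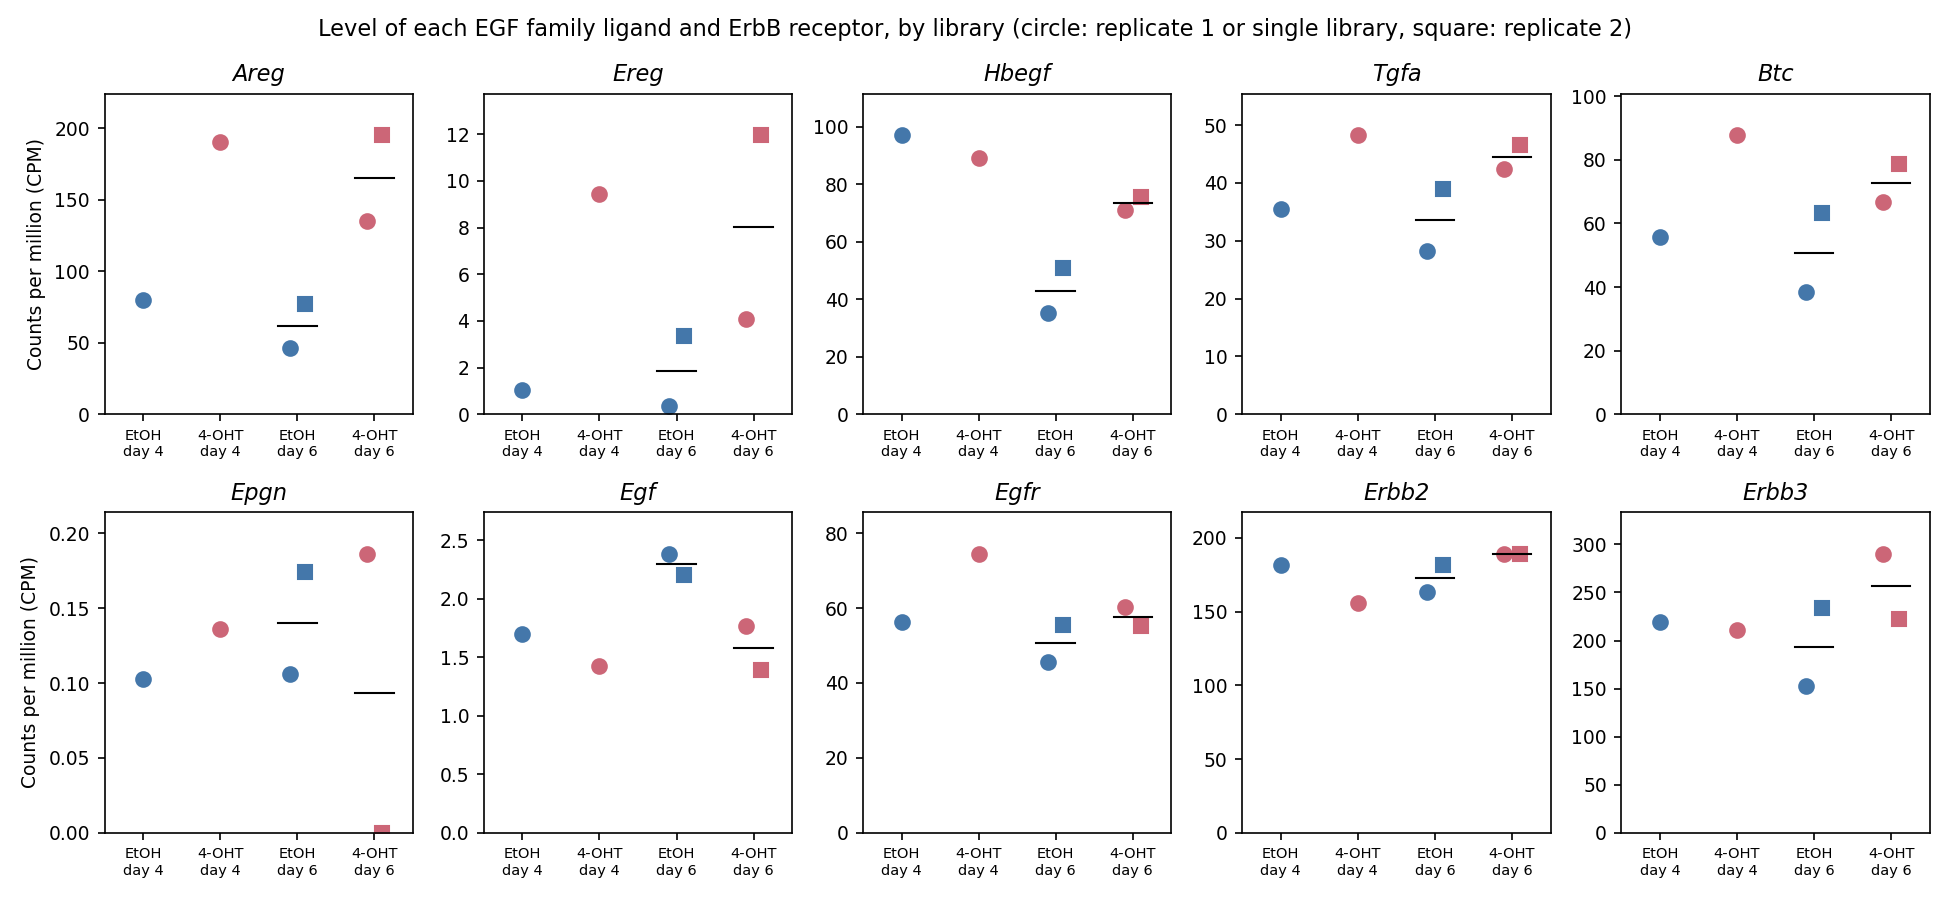
Level of each of the 10 genes in the 6 libraries, in TMM-scaled CPM, by label and day, with each axis starting at 0; bars are means of the 2 day 6 replicates. Areg lies between 46.0 and 79.6 CPM in the EtOH libraries and between 135 and 195 CPM in those labelled 4-OHT, whereas the Egfr, Erbb2 and Erbb3 values of the labels overlap when both days are taken.

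Ereg, a ligand of EGFR and ErbB4 encoded beside Areg, had the largest fitted change of the members but few counts. It had 7 and 58 counts in the day 6 EtOH pair and 88 and 223 in the 4-OHT-labelled pair. In CPM these were 0.371 (95% exact Poisson interval 0.149 to 0.765) and 3.37 (2.56 to 4.35) against 4.10 (3.29 to 5.05) and 11.96 (10.4 to 13.6), intervals that cover counting error only. The EtOH replicates thus differed from each other beyond their counting error, and the higher of them lay close under the lower 4-OHT-labelled library. The log2 fold change was 2.11 (SE 0.78, 95% interval 0.37 to 3.85) and did not pass the test (p 0.0225, adjusted p 0.332). At day 4 there were 20 counts in EtOH and 139 in 4-OHT, 1.03 and 9.46 CPM. Over both days the log2 fold change was 2.45 (95% interval 0.97 to 3.92, adjusted p 0.0841), with every 4-OHT-labelled library above every EtOH library. Ereg passed at day 6 without EtOH replicate 2 (log2 fold change 4.40, adjusted p 0.0395) and without replicate 1 of the 4-OHT label (2.69, adjusted p 1.17e-06), and over both days without the same libraries (adjusted p 0.00592 and 0.0456). The day 6 change was 1.25 (adjusted p 0.560) without EtOH replicate 1 and 1.14 (adjusted p 0.651) without replicate 2 of the 4-OHT label. With all 4 libraries Ereg passed with no filter on low counts (2.11, adjusted p 1.55e-06) and not under DESeq2 (adjusted p 0.883), so the call depended on single libraries and on the processing. Of its exon sequence, 3.89% overlaps Gm19610, an lncRNA on the opposite strand that had 0 to 15 counts per library, and the strand setting of the counting is not given in the sources used here.

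Hbegf, Btc and Tgfa were higher in both day 6 libraries labelled 4-OHT without passing the test. HB-EGF is released in response to many stimuli and binds heparan sulphate. Hbegf, on chromosome 18, stood at 35.1 and 51.0 CPM in EtOH and 71.1 and 75.7 CPM in 4-OHT-labelled libraries at day 6 (log2 fold change 0.77, SE 0.21, adjusted p 0.122). The day 4 pair did not repeat this order, with 97.0 CPM in EtOH and 89.2 CPM in 4-OHT. Hbegf passed at day 6 under DESeq2 (log2 fold change 0.76, adjusted p 0.0336), with no filter (0.77, adjusted p 0.00624) and without EtOH replicate 2 (1.06, adjusted p 0.0150). Without any other day 6 library its change was 0.53 to 0.81 (adjusted p 0.212 to 0.369), and 16.3% of its exon sequence overlaps the antisense gene Gm41698. Over both days its log2 fold change was 0.47 (adjusted p 0.295, and 0.0229 with no filter).

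Betacellulin binds EGFR and ErbB4. Btc stood at 38.4 and 63.3 CPM in day 6 EtOH and 66.7 and 78.6 CPM in day 6 4-OHT-labelled libraries, and at day 4 at 55.7 and 87.7 CPM. The log2 fold change was 0.51 (SE 0.24, adjusted p 0.526) at day 6 and 0.56 (adjusted p 0.139) over both days. TGF-alpha is a high-affinity EGFR ligand. Tgfa (chr6:86172041-86252728, plus strand) stood at 28.2 and 38.9 against 42.4 and 46.5 CPM at day 6, and at 35.6 against 48.2 CPM at day 4. Its log2 fold change was 0.40 (SE 0.21, adjusted p 0.600) at day 6 and 0.42 (adjusted p 0.185) over both days. For both genes, all 3 libraries labelled 4-OHT lay above all 3 EtOH libraries, and without EtOH replicate 2 Btc passed at day 6 (0.91, adjusted p 0.0326) and over both days (0.80, adjusted p 0.00934). The Btc change at day 6 was 0.20 without EtOH replicate 1 (adjusted p 0.749) and 0.39 without replicate 2 of the 4-OHT label (adjusted p 1.0), and over both days Btc also passed with no filter (0.56, adjusted p 0.00226).

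Egf and Epgn were at the lower end of what the depth could measure. Egf had 45 and 38 counts in day 6 EtOH and 38 and 26 counts in day 6 4-OHT-labelled libraries, 2.39 and 2.21 against 1.77 and 1.39 CPM. It was the only member lower in both 4-OHT-labelled libraries at day 6 (log2 fold change -0.54, SE 0.44, 95% interval -1.52 to 0.45, adjusted p 0.811), and at day 4 it was at 1.70 (EtOH) and 1.43 CPM. Antisense genes overlap 10.1% of its exon sequence. Epgn had 2 and 3 counts in day 6 EtOH and 4 and 0 in day 6 4-OHT-labelled libraries, and 2 in each day 4 library. It failed the filter on low counts and was not tested, and the 0 allows up to 0.161 CPM (3 counts). No difference in Epgn was detectable at this depth.

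Taken by order alone, 5 of the 6 ligands tested were higher in both day 6 libraries labelled 4-OHT than in both EtOH libraries, and Egf was lower in both. Of all genes tested, 20.5% were ordered in the first way and 18.4% in the second. Over all 6 libraries 4 of 6 ligands (Areg, Ereg, Btc and Tgfa) had every 4-OHT value above every EtOH value, which held for 11.1% of genes. The median log2 fold change of the 6 ligands was 0.64 at day 6 against -0.01 over all genes tested, and 5 of 6 were above 0 where 48.1% of all genes were. At an unadjusted p under 0.05 there were 3 of 6 ligands at day 6 (all genes, 10%) and 5 of 6 over both days (all genes, 15.8%). After adjustment over all genes 1 ligand remained in each comparison, Areg, and over both days 3.36% of all genes passed as higher.

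None of the 3 receptors passed the test at either comparison. As 2.15% of all genes passed at day 6 and 3.98% over both days, that count alone is no result about them. Egfr (chr11:16702198-16868158, plus strand) encodes a receptor of each ligand tested. It stood at 45.7 and 55.4 CPM in day 6 EtOH and 60.3 and 55.2 CPM in day 6 4-OHT-labelled libraries. The values overlapped, and the log2 fold change was 0.19 (SE 0.18, 95% interval -0.22 to 0.59, adjusted p 0.854). At day 4 Egfr was at 56.2 CPM in EtOH and 74.5 CPM in 4-OHT, and over both days its log2 fold change was 0.26 (95% interval -0.01 to 0.54, adjusted p 0.345).

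Erbb2, the dimer partner without a ligand of its own (chr11:98303203-98328542, plus strand), stood at 163 and 182 CPM in day 6 EtOH libraries and at 189 CPM under the 4-OHT label in both. Its 4-OHT values lay just above the EtOH values at day 6 and below them at day 4, where EtOH had 182 and 4-OHT 156 CPM. The log2 fold change was 0.13 (SE 0.16, 95% interval -0.23 to 0.49, adjusted p 0.896) at day 6 and 0.02 (95% interval -0.24 to 0.27, adjusted p 0.967) over both days. Erbb3, the neuregulin receptor (chr10:128403392-128425811, minus strand), stood at 153 and 234 CPM in day 6 EtOH and 290 and 223 CPM in day 6 4-OHT-labelled libraries. These overlapped widely, with a log2 fold change of 0.40 (SE 0.23, 95% interval -0.11 to 0.92, adjusted p 0.655). The day 4 values of Erbb3 were 220 (EtOH) and 211 CPM, and over both days the log2 fold change was 0.25 (95% interval -0.16 to 0.67, adjusted p 0.569).

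Per kilobase of exon, Erbb2 and Erbb3 were the abundant receptors and Egfr the scarce one in every library. At day 6 in EtOH they stood at 31.8 ± 2.43 (Erbb2), 30.7 ± 9.06 (Erbb3) and 4.38 ± 0.595 (Egfr) CPM per kilobase, and in 4-OHT at 34.9 ± 0.00404, 40.7 ± 7.55 and 4.997 ± 0.313. Erbb3 exceeded Erbb2 in 5 of 6 libraries, so that their order was not settled beyond the spread, and both exceeded Egfr in all 6. The receptor sum ran from 58.3 to 86.1 CPM per kilobase, with 58.3 and 75.4 in day 6 EtOH and 86.1 and 75.0 in day 6 4-OHT-labelled libraries, and 73.3 (EtOH) and 68.7 (4-OHT) at day 4. The ligand sum divided by the receptor sum was 0.984 and 1.24 in day 6 EtOH, 1.70 and 2.68 in day 6 4-OHT, 1.39 in day 4 EtOH and 2.93 in day 4 4-OHT-labelled libraries. All 3 quotients of the libraries labelled 4-OHT lay above those of the EtOH libraries. Areg made up 63.9% to 79.3% of the ligand sum, so this order is not independent of the Areg difference. Without Areg the ligand sums overlapped, at 36.8 CPM per kilobase in day 4 EtOH and 35.9 in day 6 4-OHT replicate 1.

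**Figure D3:**
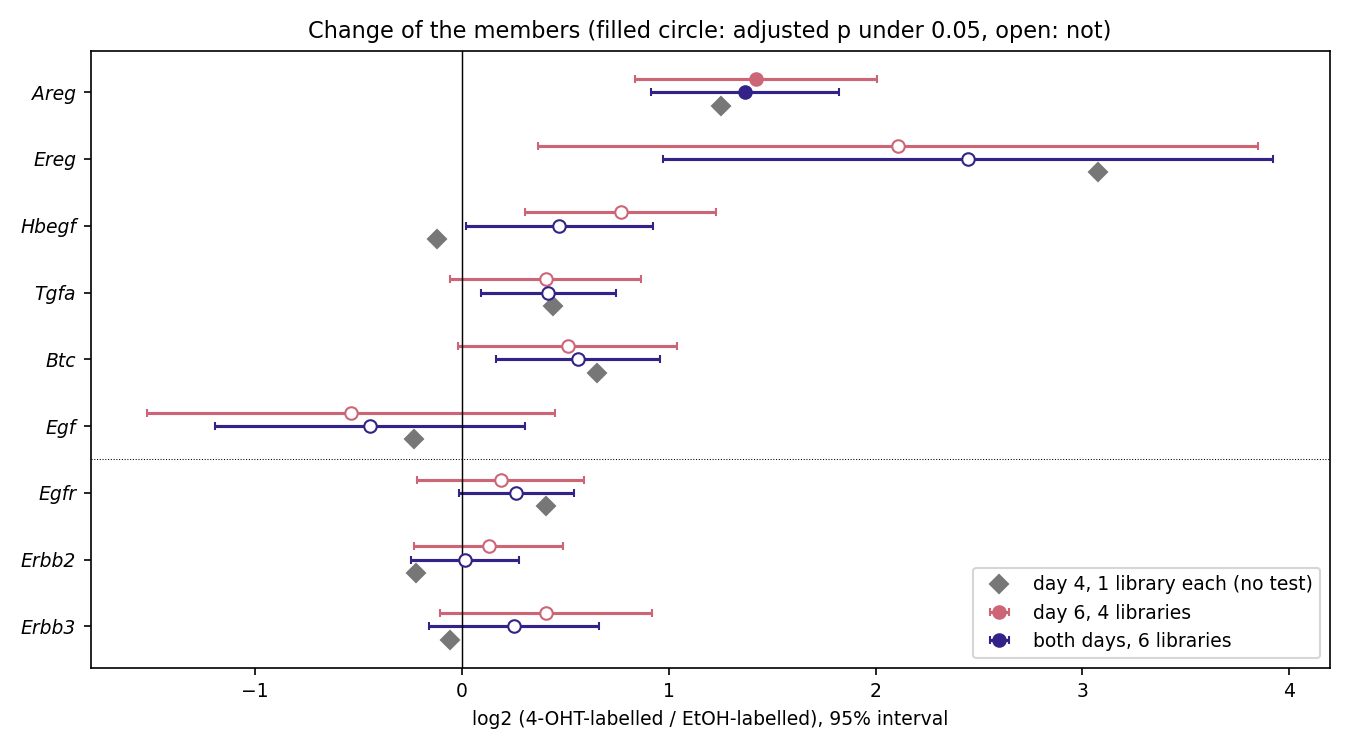
Log2 ratio of the libraries labelled 4-OHT over the EtOH libraries for the 9 members tested, ligands above the dotted line and receptors below it; circles with 95% intervals come from the day 6 and the 6-library comparisons and diamonds from the single day 4 libraries. Only Areg is filled, with 1.42 at day 6 and 1.37 over both days, and the receptor intervals all include 0.

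Whether the receptors moved with Areg was read from the ratio within each library. The log2 ratio of Areg to Egfr in CPM was 0.33 ± 0.28 in the 3 EtOH libraries and 1.44 ± 0.34 in the 3 labelled 4-OHT (SD), a difference of 1.12. Against Erbb2 the ratio moved from -1.42 ± 0.35 to -0.05 ± 0.39, a difference of 1.37, and against Erbb3 from -1.60 ± 0.14 to -0.48 ± 0.54, a difference of 1.12. The labels did not overlap in any of the 3 ratios. All 3 hold the same Areg values, whose labels did not overlap either, so they are not independent results. Of all genes, 11.1% had every 4-OHT value above every EtOH value. Each gave p 0.1 in a two-sided exact permutation test (adjusted p 0.1 over the 3 ratios), the smallest value that 3 against 3 libraries can give, so that no ratio could pass 0.05. At day 6 the interval of the Areg change (0.84 to 2.0) lay above those of Egfr and Erbb2 (up to 0.59 and 0.49). It met that of Erbb3 (up to 0.92). The wide Ereg interval (0.37 to 3.85) met those of all 3 receptors, so it cannot show whether they moved with Ereg.

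No member passed a test between the days of collection. At day 4, with 1 library per label and no test, Areg and Ereg were at least 2-fold higher in the 4-OHT-labelled library, as were 5.79% of all genes. With a prior count of 2 their log2 ratios were 1.25 (95% exact counting interval 1.16 to 1.34) and 3.07 (2.52 to 3.96), and the other 8 members lay between -0.23 and 0.65. Between day 6 and day 4, with treatment as a term, none of the 9 members tested passed, where 0.356% of all genes did. Hbegf came nearest, lower at day 6 (log2 fold change -0.75, p 0.00532, adjusted p 0.201). In the test of the treatment effect between days no member passed, nor did any of the 14060 genes tested (0.00%), with edgeR giving 235 genes (1.67%) at an unadjusted p under 0.05 and DESeq2 6 genes after adjustment. For Hbegf the day 6 effect exceeded the day 4 effect by 0.89 on the log2 scale (95% interval 0.12 to 1.66, p 0.0273, adjusted p 1). The day 4 libraries also carry another style of library name, so day and any batch cannot be told apart.

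Of 65 genes that act around the receptors, 60 passed the filter at day 6 and 1 passed the test. That share is near the 2.15% of all genes that passed, so the counts of the lists with no call are no result about their genes. Among ErbB4 and the neuregulins only Nrg4, an ErbB4 ligand, was tested, at 1.38 and 1.97 CPM in day 6 EtOH and 1.91 and 1.02 CPM in 4-OHT-labelled libraries (log2 fold change -0.19, adjusted p 0.967). Erbb4 itself had at most 1 count in any library. Nrg1 and Nrg3 had 0 counts in all 4 day 6 libraries, and at day 4 Nrg1 had 3 (EtOH) and 8 (4-OHT) counts and Nrg3 0 and 2. Nrg2 had 4 counts in 1 day 6 library labelled 4-OHT and 0 in the others, and 15 (EtOH) and 3 (4-OHT) at day 4.

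Of 12 genes of ligand shedding and trafficking 11 were tested and none passed at day 6, with a median log2 fold change of 0.03. The sheddase genes Adam10 and Adam17 had log2 fold changes of 0.09 and -0.02. Furin, a proprotein convertase, rose over both days (log2 fold change 0.49, adjusted p 0.0431, where 3.98% of all genes passed), with 90.0 and 109 against 140 and 142 CPM at day 6 (0.50, adjusted p 0.236), and this call ended when either 4-OHT-labelled day 6 library or either day 4 library was left out (adjusted p 0.160 to 0.252). All 21 signal transducers, from Grb2 to Stat3, were tested and none passed, with a median of 0.02. The smallest p-values in that list were those of Pik3r1, the regulatory subunit of PI3K (log2 fold change -0.49, adjusted p 0.277), and Mapk3, which encodes ERK1 (0.36, adjusted p 0.530).

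Dusp6, a phosphatase that inactivates ERK and is transcribed in response to it, was the 1 of 21 receptor and pathway inhibitors that passed at day 6. It stood at 27.4 and 29.5 CPM in EtOH and 69.4 and 61.1 CPM in 4-OHT-labelled libraries, groups far apart beside their spread. Its rise was 1.19 on the log2 scale (SE 0.18, adjusted p 0.00893) at day 6 and 1.07 (adjusted p 0.00197) over both days, and at day 4 it was at 40.7 (EtOH) and 71.5 CPM. Dusp5, another ERK phosphatase, passed over both days (log2 fold change 0.56, adjusted p 0.0339) but not at day 6 alone (0.61, adjusted p 0.180). Its call over both days ended when any 1 of the 6 libraries was left out (adjusted p 0.0557 to 0.177). Exon overlap with antisense genes is 23.0% for Dusp6 and 22.4% for Dusp5.

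The list of 10 transcripts known to follow ERK activity held Dusp6 as its only call. Its median log2 fold change was 0.27 at day 6, with 8 of 10 above 0 (all genes, 48.1%). At an unadjusted p under 0.05 there were 4 of 10 (all genes, 10%), Dusp6 and 3 genes picked out here after their values were seen, Epha2 (log2 fold change 0.74), Epha4 (0.65) and Ccnd1 (0.40). The feedback inhibitors Spry2 and Spry4 had log2 fold changes of -0.01 and 0.10. Spry1, which is in the inhibitor list only, had 0.51 without passing (adjusted p 0.370). It stood at 24.7 and 31.3 CPM in day 6 EtOH and 39.3 and 40.5 CPM in day 6 4-OHT-labelled libraries. Lrig1, which targets ErbB receptors for degradation and marks crypt stem cells, was at 376 and 470 CPM in EtOH and 340 and 361 CPM in 4-OHT-labelled libraries (-0.28, adjusted p 0.730).

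**Figure D4:**
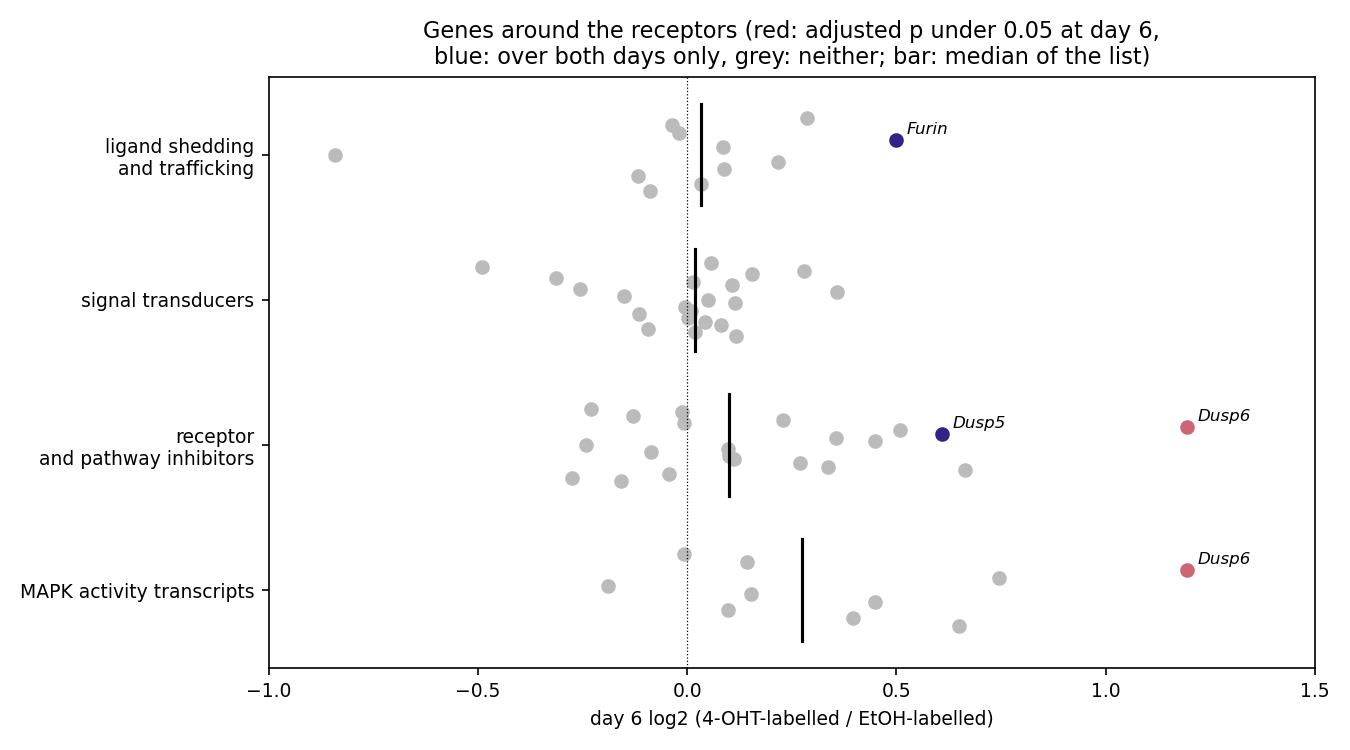
Day 6 log2 fold change of each tested gene in 4 lists of genes around the receptors, with the list median as a black bar. Dusp6, in 2 of the lists, stands at 1.19 and is the only gene past the test at day 6, and Furin and Dusp5 passed over both days only.

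Outside the family, the genes whose pattern over the 6 libraries lay closest to that of Areg were Paqr8, Plaur, Mapre3, Myo7a and Osgin1. Closeness was the root mean square difference of log2 CPM after each gene was centred on its mean, over 10123 protein-coding genes averaging 5 CPM or more, and was 0.15 to 0.19 for these 5. The genes were picked for this likeness, so their levels are given as a description with no test. Plaur, the urokinase receptor, stood at 10.9 and 14.2 CPM in day 6 EtOH and 29.7 and 36.0 CPM in 4-OHT-labelled libraries. Myo7a, an unconventional myosin, stood at 47.6 and 75.7 against 140 and 145 CPM. For Ereg the closest were Cxxc5, Ildr1, Tc2n, S100a6 and Rnf150, at 0.36 to 0.54. These fits were looser than for Areg, and S100a6, a calcium-binding protein, stood at 6.47 and 10.5 against 29.1 and 46.2 CPM.

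Among the members, Btc lay closest to Areg at 0.41 and stood at rank 151 of the genes compared. Tgfa was at 0.51 (rank 368) and Hbegf at 0.53 (rank 477). Egfr was at 0.61 (rank 1002), Erbb3 at 0.64 (rank 1393), Ereg at 0.70 (rank 2546) and Erbb2 at 0.74 (rank 4028). The measure counts the size of a change as well as its direction. At day 6 the log2 fold change was 2.11 for Ereg, 1.42 for Areg and 0.19 for Egfr. Over the 6 libraries the labels did not overlap for Ereg and overlapped for all 3 receptors. A smaller difference thus does not mean that Egfr or Erbb3 followed Areg more closely than Ereg did. From the side of Ereg, Areg was the nearest member and stood at rank 31 of all genes compared. Over all 6 libraries both ligands were lowest in day 6 EtOH replicate 1 and highest in day 6 4-OHT replicate 2, as no receptor was. Among the day 6 libraries alone, Hbegf, Tgfa, Btc and Erbb2 had the same lowest and highest library. For Erbb2 the 4-OHT values were nearly equal, at 189.13 and 189.16 CPM.

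No tested gene around the ligand cluster on chromosome 5 passed with Areg. Within 500 kb, 4 other protein-coding genes were tested, Afm, Rassf6, Mthfd2l and Parm1, and none passed. As 2.15% of all genes passed at day 6, that count is no result about these genes. Rassf6 was higher in every 4-OHT-labelled library than in every EtOH library (all genes, 11.1%). Afm was lower in every one, an order whose share of all genes over both days is not given here. At day 6 alone, 18.4% of all genes were lower in both 4-OHT-labelled libraries. The labels of Mthfd2l and Parm1 overlapped. Over both days the adjusted p was 0.276 for Rassf6 and 0.1125 for Afm. In the order first named, the day 6 log2 fold changes of the 4 genes were -1.68 (adjusted p 0.466), 0.24 (0.785), -0.42 (0.699) and 0.30 (0.788). Afm, an albumin family gene, was at no more than 1.80 CPM. The lncRNA Gm19619, between Areg and Btc, had 3 and 7 counts in day 6 EtOH and 31 and 12 counts in 4-OHT-labelled libraries (log2 fold change 1.88, adjusted p 0.424). Of the chemokine genes upstream, Cxcl1 reached 16 counts and Cxcl2 7 counts in 1 library, and Cxcl5 had none.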

How the data were processed

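The authors deposited 1 table of whole-number read counts per gene for each of 6 libraries, not normalized, headed by 4 summary lines (19.3% to 26.7% of entries) that were left out of sizes and tests. Reads were aligned with STAR to mm39, per the submitters' processing notes. The annotation and strand setting are not given in the sources used here. Reads assigned to several genes stand in an ambiguous line (5.28% to 5.88%) and in no gene. Per the labels' protocols, poly-A RNA was captured on beads and copied with random primers. No molecular identifiers are mentioned, so counting intervals cover counting error only.

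Groups came from the labels. The main test was quasi-likelihood in edgeR 4.0.16 (glmQLFTest, R 4.3.3), with TMM scaling and a filterByExpr minimum count of 10, with Benjamini-Hochberg adjustment over all genes tested and a threshold of 0.05. A gene below that threshold passed, or is called. Day 6 used 4 libraries, both days used 6 with day as a term. SE is the absolute log2 fold change over the square root of F. Symbols, exon lengths and upstream sequence came from the GENCODE annotation of GRCm39. Named were the 10 members, Ythdf2, called genes of each pathway list (otherwise the 2 smallest p), and the 5 nearest patterns to Areg and Ereg; other genes are given as values. Members and lists were chosen with earlier results of these data known. Scripts were tested on simulated counts. Day 6 replicates differed by more than counting noise (chi-square per degree of freedom 23.6 and 16.5). The alternatives were other scalings, filters, DESeq2 1.42.0, a replicate block, other designs, a robust spread (added after seeing the data), exon length, prior count and leaving out each library.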

Additional observations from a re-analysis of the deposited data

How the results depend on the processing

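Areg kept its direction at both comparisons under every alternative and its call except without day 6 EtOH replicate 1. Counts of calls moved more. At day 6, 1 member passed, against 3 with no filter, 2 with DESeq2 and 0 to 4 with a library left out. Of all genes, 302 passed, against 725 with no filter, 502 with DESeq2 and 172 to 473 with a library left out; of the pathway lists 1 gene passed, against 2 with no filter and 1 to 3. Over both days, 1 member became 4 with no filter and 1 to 3 with a library left out, and 560 genes became 1150 with no filter, 857 with DESeq2, 333 with no day term and 305 to 637. Between days, 0 members became 1 with no filter (Hbegf) and 1 with DESeq2, and 50 genes became 832, 318 and 8 to 459. For the difference between days, 0 genes became 6 with DESeq2 and 0 to 25. The Areg share was 58.3% in EtOH and 70.7% in 4-OHT with the longest transcript as length, and 65.6% to 67.3% and 75.4% to 79.3% with a library left out.

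With the replicate number as a block, 3 members passed at day 6 (Areg, Ereg with log2 fold change 2.38 and adjusted p 4.29e-07, and Hbegf with 0.79 and 0.00332), with 816 of all genes and 2 of the pathway lists. The labels do not say that equal numbers pair libraries, and the deviations of same-numbered day 6 libraries correlated at 0.277 over 14066 genes, which are not independent replicates.

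Signs turned only when a library was left out, and only for values that passed no test. The log2 ranges were -0.065 to 0.13 for Erbb2 over both days, -0.71 to 0.18 for Nrg4 at day 6, and between days -0.55 to 0.84 for Ereg, -0.082 to 0.28 for Erbb2 and -0.19 to 0.28 for Erbb3. For the difference between days they were -0.15 to 0.57 for Areg, -2.06 to 1.19 for Ereg, -0.24 to 0.20 for Tgfa and -0.45 to 0.24 for Btc. Where leaving out a library left 1 in a group, that library was assumed to vary like the others. Depth limits Ereg, Egf and Epgn.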
